A study of Delphinium anthriscifolium with 89 samples.

Results

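Carpels of the larkspur *Delphinium anthriscifolium*, of the buttercup family, were compared between floral stage S16 and the earlier floral stage S12. The comparison rests on 6 of the 89 libraries of the series, 3 titled as carpels at S16 and 3 as carpels at S12, all from wild-type plants and taken from the sample titles. The series profiled by RNA sequencing the petals, sepals, stamens and carpels of the flower at S9, S10, S12 and S16, with leaves and bracts and 4 libraries of a silencing experiment that were not used here. The 5 earlier carpel libraries (2 at S9 and 3 at S10), also wild type, show where a feature stood before S12. The 36 libraries of stamens, 3 sepal types and 2 petal types at S12 and S16, 3 a group, give the same step in other organs. The labels do not say what happens to the flower between S12 and S16, and they do not say whether the replicates of a group are different plants, so a p-value here speaks only of library-to-library spread, part or all of which may be technical.

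Carpels are the innermost organs of the flower. Each encloses ovules in an ovary and carries a stigma that receives pollen and a style through which pollen tubes grow. After fertilisation the ovary wall becomes the fruit and the ovules become seeds, and in many plants the young ovary wall is green and photosynthetic. In larkspurs the carpels are separate from each other and ripen into dry pods called follicles.

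The values are estimated read counts for 32115 features of a transcript assembly, which belong to 26584 assembly genes by their IDs. The 6 libraries held between 7135899 and 13292619 counts, so that 3 counts in a library stood for between 0.226 and 0.42 CPM (counts scaled to a library total and composition common to all). At S12, 22569, 22494 and 21300 features had a count in replicates 1, 2 and 3, and at S16 22708, 23207 and 15546. S16 replicate 3 stood apart: its log2 CPM correlated with the other S16 libraries at 0.811 and 0.803, whereas these correlated with each other at 0.984 and the S12 libraries at 0.919 to 0.966. The 10 most abundant features took 6.05% of its counts, against 2.91% to 3.97% in the other 5. Of the 11840 features at 10 CPM or more in S16 replicates 1 and 2, 352 (2.97%) had no count in replicate 3, and of 11889 chosen in the same way at S12 none (0) was missing from S12 replicate 3. All 7 S16 libraries numbered 3, across the floral organs, held fewer than 19000 features, as did carpel replicates 1 and 3 at S10. Results are given with and without these libraries, and intervals and floors cover counting error only.

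RNA of the labelled organ was present at both stages. A set of 34 features was at least 4-fold higher in S9 and S10 carpels than in each of leaves, bracts, sepals, petals and stamens. Their counts summed to 4593 to 5347 CPM in S12 carpels and to 4712 to 9288 CPM in S16 carpels, where replicate 3 held the highest sum. In the 36 libraries of other floral organs at S12 and S16 the sum did not pass 799 CPM. Of the 34, 2 had no count in each S12 library, and 3, 2 and 8 had none in S16 replicates 1, 2 and 3.

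With all 11 carpel libraries sharing one estimate of the spread, few features were called changed from S12 to S16. edgeR's quasi-likelihood test called 11 features higher and 12 lower at S16 of 19829 tested, at a Benjamini-Hochberg adjusted p under 0.05. That is 0.116% of features (0.0555% higher and 0.0605% lower), and each differed by 2-fold or more. Before adjustment 1563 features had a p under 0.05, and 5% of those tested is 991. The 11 features that rose had log2 changes of 1.40 to 10.09 (median 3.80), from group means of 0.0808 to 323 CPM at S12 to means of 54.2 to 3418 CPM at S16. The 12 that fell had log2 changes of -7.42 to -1.51 (median -2.16), from 7.71 to 2256 CPM down to 0.0255 to 492 CPM. In all 23 the S12 and S16 libraries did not overlap in CPM, which was true of 23.1% of all features tested. Leaving out S12 replicate 1, 2 or 3 left 0 calls, with 1399, 1012 and 878 features at an unadjusted p under 0.05. Without S16 replicate 1 there was 1 call and without replicate 2 there were 4, all higher.

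The number of calls changed with the libraries in the fit and with the test. Without S16 replicate 3, edgeR called 23 features higher and 35 lower (0.294% of 19708; 0.117% and 0.178%), 17 of the 23 features above among them. Without the 3 carpel libraries under 19000 features it called 628 higher and 604 lower (5.9% of 20869; 3.01% and 2.89%), with 452 and 466 of them changed at least 2-fold. All 23 features of the 11-library fit and all 58 of the fit without S16 replicate 3 were among these 1232. The coefficient of variation between replicates common to all features was 0.652 over 11 libraries, 0.558 without S16 replicate 3 and 0.281 without all 3. DESeq2 on the 11 libraries called 262 higher and 210 lower. Voom with sample quality weights on the same 11 libraries called 2997 and 2287. The fit without the 3 libraries leaves out S16 replicate 3, from a compared group, as well as S10 replicates 1 and 3, which enter only through the spread. Leaving out S10 replicate 1 alone, a choice made after the data were seen, gave 112 and 68.

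**Figure D1:**
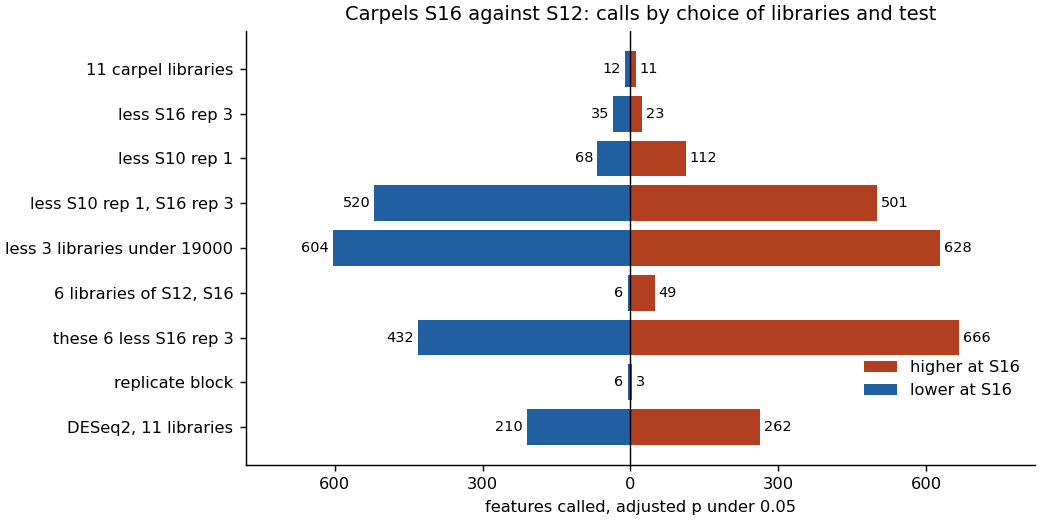
Features called higher (right) and lower (left) in S16 than in S12 carpels, by the libraries and test used; bars are counts of features at an adjusted p under 0.05, on a linear axis from 0. The bars run from 11 and 12 with all 11 carpel libraries to 628 and 604 without the 3 libraries under 19000 features, with 501 and 520 without S10 replicate 1 and S16 replicate 3.

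The files do not pair features with gene names, so few are named, by ID, and nothing is said of what they encode. DN46815_c0_g1_i1|m.89542 was close to absent from carpels until S16. It stood at 0.094, 0.149 and 0 CPM in S12 replicates 1, 2 and 3 and at 100.9, 60.0 and 189.7 CPM in S16 replicates 1, 2 and 3. The 3 S16 libraries were all far above the S12 libraries, replicate 3 the highest. The S9 and S10 libraries held at most 0.138 CPM. Its fitted log2 change was 10.09 ± 0.80 (SE; edgeR adjusted p = 0.00585), and 9.56 ± 0.84 without S16 replicate 3 (edgeR adjusted p = 0.0184). With only 3 counts at S12 against 3262 at S16, the ratio was 1075 with an exact 95% counting interval of 368 to 5215.

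DN45113_c1_g6_i1|m.64044 followed the same course. It was at 2.63, 0.966 and 0.948 CPM at S12 and at 105.6, 61.9 and 230.8 CPM at S16, with at most 0.311 CPM at S9 and S10. The groups did not overlap, and S16 replicate 3 was again the highest. Its log2 change was 6.43 ± 0.75 (edgeR adjusted p = 0.0188), and 5.77 ± 0.77 without that library (edgeR adjusted p = 0.0431).

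Both features belonged to sets of stamen-enriched features, chosen in libraries other than the S12 and S16 carpels. DN46815 was at 373, 124 and 25.2 CPM in S12 stamens and at 7.09, 14.8 and 5.49 CPM in S16 stamens on the scale of the 42 floral libraries, so it stood higher in S16 carpels, at 84.9, 50.1 and 160.9 CPM on this scale, than in S16 stamens. DN45113 was at 226, 418 and 106 CPM in S12 stamens and at 256, 185 and 55.3 CPM in S16 stamens, a range that overlaps its 88.9, 51.8 and 195.7 CPM in S16 carpels. Stamens were not the only other organ that held them. DN45113 was at 95.1, 140.9 and 51.6 CPM in S12 dorsal sepals and at 76.0, 107.6 and 25.2 CPM in S16 dorsal sepals. In lateral and ventral sepals and in petals it did not pass 14.43 CPM. DN46815 was at 30.85, 40.07 and 11.38 CPM in S16 dorsal petals, and it did not pass 11.41 CPM in sepals or lateral petals. The stamen RNA in the carpel libraries as a whole is described with the organ sets below.

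DN34568_c0_g1_i1|m.15014 was lower at S12 than at S10 and lower again at S16. It stood at 39.6 and 51.1 CPM at S9, at 59.0, 69.4 and 58.7 CPM at S10 and at 9.77, 12.0 and 20.1 CPM in S12 replicates 1, 2 and 3, and at S16 it was at 0.658, 1.22 and 0 CPM. No S16 library reached the lowest S12 library. Its log2 change from S12 to S16 was -4.32 ± 0.67 (edgeR adjusted p = 0.0434), and -3.86 ± 0.44 without S16 replicate 3 (edgeR adjusted p = 0.0184). In the other floral organs at S12 and S16 it did not pass 1.54 CPM in any library, against 8.34 to 17.2 CPM in S12 carpels on the same scale, while S9 and S10 petals held 23.3 to 114.8 CPM.

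DN46266_c2_g3_i1|m.80557 was at 14.4, 21.2 and 36.5 CPM at S12 and at 3.12, 3.06 and 5.46 CPM at S16, and at 26.2 to 43.3 CPM across the S9 and S10 libraries. The S12 replicates were spread over a wide range, all above the S16 libraries. Its log2 change was -2.63 ± 0.43 (edgeR adjusted p = 0.0499) and -2.95 ± 0.43 without S16 replicate 3 (edgeR adjusted p = 0.0374). The level was lower at S16 in each of the other organs too, with no overlap of S12 and S16 libraries in any of them, for example from 12.1, 14.6 and 23.2 CPM to 0.634, 1.71 and 0 CPM in stamens. Its call was lost in 11 of 19 alternatives, that of DN34568 in 8, that of DN45113 in 5 and that of DN46815 in 3, and no direction changed. Each of the 4 lost its call without S12 replicate 1, 2 or 3, and DN34568 and DN46266 also without S16 replicate 1 or 2, DN45113 without S16 replicate 1.

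**Figure D2:**
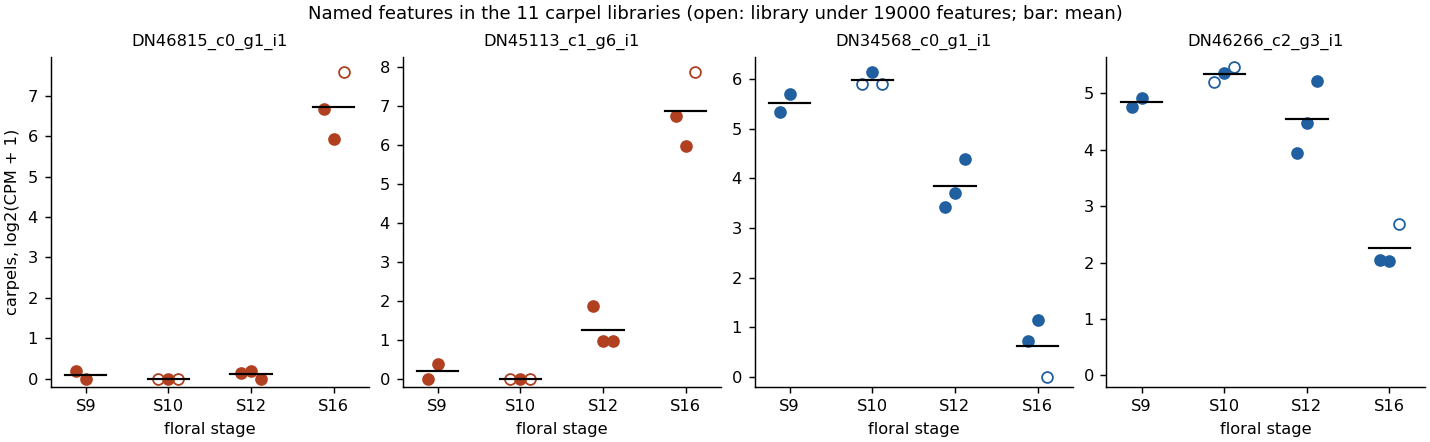
Level of 4 named features in the 11 carpel libraries by floral stage, as log2(CPM + 1); points are libraries, open where fewer than 19000 features were detected, and bars are group means. DN46815 and DN45113 are near 0 until S12 and reach 60.0 to 230.8 CPM at S16, and DN34568 and DN46266 are at their lowest at S16.

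The S9 and S10 libraries place the called features in the stage series. The call itself fixed the order of S12 and S16, so the counts that follow are a description. All 11 that rose had a higher mean at S16 than at S9 and S10 as well, and all 12 that fell had a lower one. Among all features tested, 34.2% had their highest mean of the 4 stages at S16 and 33.0% their lowest. Of the 11, 8 had a higher mean at S12 than at S10, and of the 12, 10 had a lower one, a step that shares the S12 libraries with the comparison. Over all features tested, 56.7% had a higher mean at S12 than at S10 and 43.2% a lower one. In the 11-library fit 25 features were called higher and 29 lower at S12 than at S10 (0.272%), and 0 were called between S9 and S10 by edgeR, with 932 at an unadjusted p under 0.05, where DESeq2 called 80 higher and 9 lower. The 23 features lay in 22 assembly genes, one of which held 2 features that fell. No assembly gene (0 of 1680 with 2 or more features tested) had one feature called higher and another lower in edgeR, and 2 did at an unadjusted p under 0.05. With so few calls this count could hardly be above 0. Without the libraries under 19000 features 0 of 1854 genes had opposite calls, and 28 did at an unadjusted p under 0.05. DESeq2 on the 11 libraries also gave 0.

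The longer lists called without the 3 libraries under 19000 features give the shape of the change in more detail. Of the 628 features that rose, 621 had their highest mean of the 4 stages at S16, and of the 604 that fell, 553 had their lowest mean there. Over all features tested in that fit, 36.9% had their highest mean at S16 and 35.3% their lowest. The median of the 628 was 3.65 and 3.69 log2 CPM in the S9 libraries, 4.81, 4.57 and 4.57 in S12 replicates 1, 2 and 3 and 6.15 and 6.09 in S16 replicates 1 and 2. That of the 604 was 5.67 and 5.78 at S9, 5.03, 5.25 and 5.52 at S12 and 4.00 and 4.06 at S16. The S12 and S16 libraries chose these lists, so these counts and the gap between those stages are a description.

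S16 replicate 3 had no part in choosing the 1232 features, although the S12 libraries it is set against did. Of the 628, 422 (67.2%) were higher in S16 replicate 3 than in all 3 S12 libraries and 89 were lower than all 3, whereas 27.2% of all features were higher. Of the 604, 421 (69.7%) were lower than in all 3 S12 libraries and 84 were higher. Among all features 49.1% were lower, and 26.2% had no count in that library. The median of the 628 in S16 replicate 3 was 5.78 log2 CPM and that of the 604 was 4.52, each between the S12 values and those of S16 replicates 1 and 2.

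**Figure D3:**
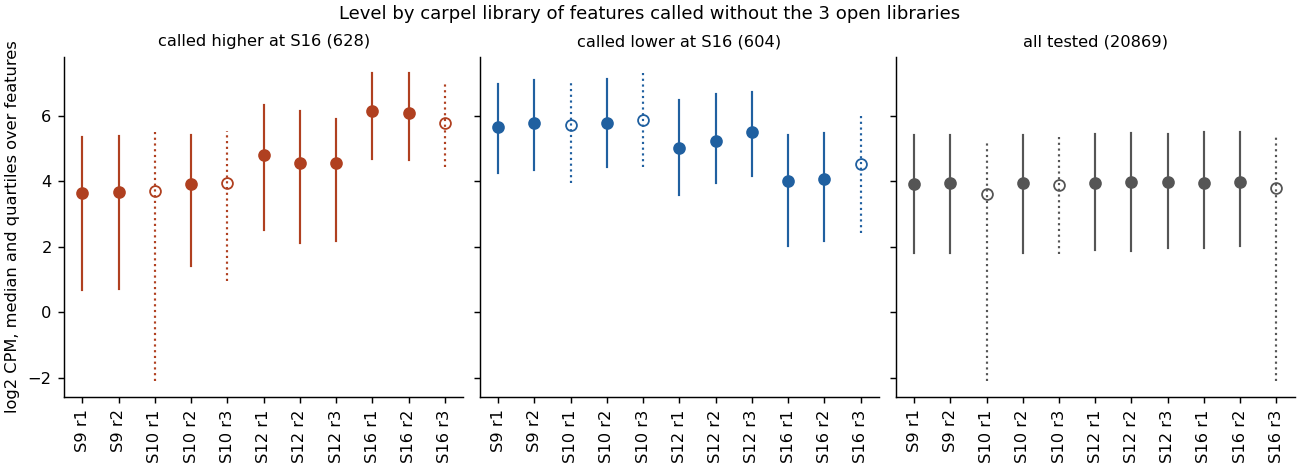
Level in each carpel library of the 628 features called higher, the 604 called lower and all 20869 tested without the 3 libraries under 19000 features; points are medians of log2 CPM over features, lines run between quartiles, and open points with dotted lines are the 3 libraries left out of the choice. The median of the 628 climbs from about 3.65 at S9 to 6.15 at S16 and that of the 604 drops from 5.67 to 4.00, while the median of all features stays between 3.63 and 3.98.

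Whether these changes were shared with other organs was tested in one fit of the 42 floral libraries of S12 and S16. In that fit carpels gave 221 calls higher (1.01%) and 47 lower (0.215%), or 1.22% of 21892. Without carpel S16 replicate 3 these were 139 and 26, and without the libraries under 19000 features 795 and 398. Stamens, with as many libraries as carpels, gave 1815 and 2316 (18.9%), and single sepal and petal types gave 2942 to 3923 and 4590 to 4772 calls in both directions together. The means of 3 sepal types and of 2 petal types, which average over more libraries, gave 3446 and 4699 (37.2%) and 3788 and 3794 (34.6%). The median size of the log2 change over all features was 0.445 in carpels, 0.983 in stamens, 0.798 in sepals and 0.91 in petals. The change from S12 to S16 itself differed between carpels and stamens in 2010 features (9.18%), with 1151 higher (5.26%) and 859 lower (3.92%) in carpels, between carpels and sepals in 2877 (13.1%), with 1733 higher (7.92%) and 1144 lower (5.23%), and between carpels and petals in 3203 (14.6%), with 1624 higher (7.42%) and 1579 lower (7.21%). In the fit without the 21 wild-type libraries under 19000 features these were 3004 and 2501 (24.9%), 4205 and 3251 (33.7%), and 3961 and 3689 (34.6%). DESeq2, which changes both the test and the scaling, gave 2838 higher and 1804 lower for carpels against petals. With upper-quartile scaling in edgeR these were 1849 and 1517. The median difference over all features was 0.03 on the log2 scale with the main scaling. It was 0.13 with upper-quartile scaling and 0.25 with DESeq2's size factors.

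In carpels 49 features rose and 18 fell with a change that differed from that of stamens, sepals and petals alike, each by its own interaction test. The 49 and 18 were 0.224% and 0.0822% of the 21892 features tested. They came from the 221 called higher and the 47 called lower in carpels in that fit. The median log2 change of the 49 was 3.00 in carpels, -0.77 in stamens, -0.81 in sepals and -0.53 in petals. For 31 of them the fitted change was negative in all 3 other organ kinds. The 18 had medians of -3.01 in carpels, 0.88 in stamens, 0.51 in sepals and 1.13 in petals, and 7 were positive in all 3. The same fit chose these features, so the medians and the counts of signs are a description. Over all features the medians were -0.05 in carpels, -0.28 in stamens, -0.19 in sepals and -0.09 in petals. Without carpel S16 replicate 3, 24 of the 49 and 8 of the 18 kept all 4 calls, and without the libraries under 19000 features 38 and 18 did. S16 replicate 3 had no count for 10 of the 18 and for 0 of the 49. Of the 49, 20, and of the 18, 4, met every condition for being named.

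DN47420_c1_g1_i1|m.99349 rose in carpels and fell in sepals. On the scale of the 42 libraries it was at 0.080, 0.193 and 0.116 CPM in S12 carpels and at 47.9, 37.9 and 80.3 CPM in S16 carpels. The 3 S16 carpel libraries were above every other floral library of these stages. In lateral sepals it went from 5.17, 8.35 and 11.3 CPM to 0.115, 0.112 and 0 CPM. Its log2 change was 8.58 ± 1.31 in carpels (edgeR adjusted p = 7.72e-05) and -5.09 ± 0.68 in sepals (edgeR adjusted p = 1.66e-07). The carpel change exceeded that of stamens by 11.28 ± 1.86, that of sepals by 13.67 ± 1.59 and that of petals by 8.80 ± 1.45 (edgeR adjusted p = 7.01e-05, 1.22e-07 and 2.68e-05). In the fit of the 11 carpel libraries alone its change, 8.59 ± 1.58, did not pass (edgeR adjusted p = 0.0726), and S10 replicate 1 stood out there at 9.22 CPM against at most 0.932 CPM in the other S9 and S10 libraries. Leaves held 156 ± 55.2 CPM (SD, n = 4) on the scale of all 85 wild-type libraries. On that scale S9 and S10 sepals held 13.8 to 195.6 CPM and bracts 4.92 to 70.75 CPM, against 39.8 to 80.6 CPM in S16 carpels. Stamens and petals of S9 and S10 did not pass 5.15 CPM.

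DN35623_c0_g1_i1|m.16209 was at 23.3, 11.7 and 9.27 CPM in S12 carpels and at 341, 328 and 325 CPM in S16 carpels, the 3 S16 libraries within a narrow range and replicate 3 like the others. It fell in every other organ, for instance from 342, 319 and 335 CPM to 12.3, 4.27 and 7.03 CPM in lateral sepals and from 61.9, 47.1 and 31.8 CPM to 0.373, 0.314 and 0 CPM in dorsal petals. Carpels thus ended above all other floral libraries of S16. The log2 change was 4.49 ± 0.81 in carpels (edgeR adjusted p = 0.000978), and it exceeded that of stamens by 7.996 ± 1.25, of sepals by 9.83 ± 1.05 and of petals by 11.44 ± 1.15 (edgeR adjusted p = 3.45e-05, 2.83e-08 and 5.49e-09). It was most abundant in leaves, at 3031 ± 1244 CPM (SD, n = 4, all 85 libraries scaled together), and is a member of the leaf-enriched sets. In the 11-library carpel fit the change of 4.51 ± 0.81 did not pass (edgeR adjusted p = 0.0704).

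DN41737_c0_g1_i1|m.32692 went the opposite way. It was at 272, 335 and 363 CPM in S12 carpels and at 6.99, 19.2 and 93.2 CPM in S16 carpels, replicate 3 being the closest to S12. At S9 and S10 the carpels had held 2.90 to 9.94 CPM in all libraries but S10 replicate 1, at 116.2 CPM, on the scale of the 11 carpel libraries, so that S12 was a peak. Stamens rose from 13.5, 10.7 and 20.3 CPM to 122.0, 93.1 and 336.6 CPM, and dorsal petals from 52.9, 15.6 and 21.3 CPM to 263, 257 and 852 CPM. The log2 change in carpels was -3.03 ± 0.76 (edgeR adjusted p = 0.0306) and lay below that of stamens by -6.66 ± 1.09, of sepals by -5.00 ± 0.89 and of petals by -7.19 ± 0.99 (edgeR adjusted p = 6.39e-05, 0.000103 and 1.58e-06). Without S16 replicate 3 the carpel change in the 11-library fit was -4.59 ± 1.27, against -3.01 ± 1.097 with it (edgeR adjusted p = 0.196 and 0.444).

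DN40603_c0_g1_i1|m.28365 was at 42.2, 32.8 and 58.4 CPM in S12 carpels and at 8.58, 8.11 and 21.6 CPM in S16 carpels, with no overlap. In lateral sepals it rose from 19.7, 17.2 and 34.3 CPM to 675, 556 and 573 CPM, and in lateral petals from 15.2, 8.41 and 13.8 CPM to 522, 493 and 372 CPM. All S16 libraries of other organs stood above all S16 carpel libraries. Its log2 change in carpels was -1.81 ± 0.44 (edgeR adjusted p = 0.0234), below that of stamens by -3.39 ± 0.62, of sepals by -6.09 ± 0.56 and of petals by -6.44 ± 0.58 (edgeR adjusted p = 0.000243, 1.46e-09 and 7.42e-10). The 12 interaction calls of these 4 features held in all 13 alternatives run. The carpel change itself lost its call in 6 of 13 for DN41737 and in 4 of 13 for DN40603, among them leaving out S12 replicate 1 or 3 or S16 replicate 1 or 2, and in 0 of 13 for the other two.

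**Figure D4:**
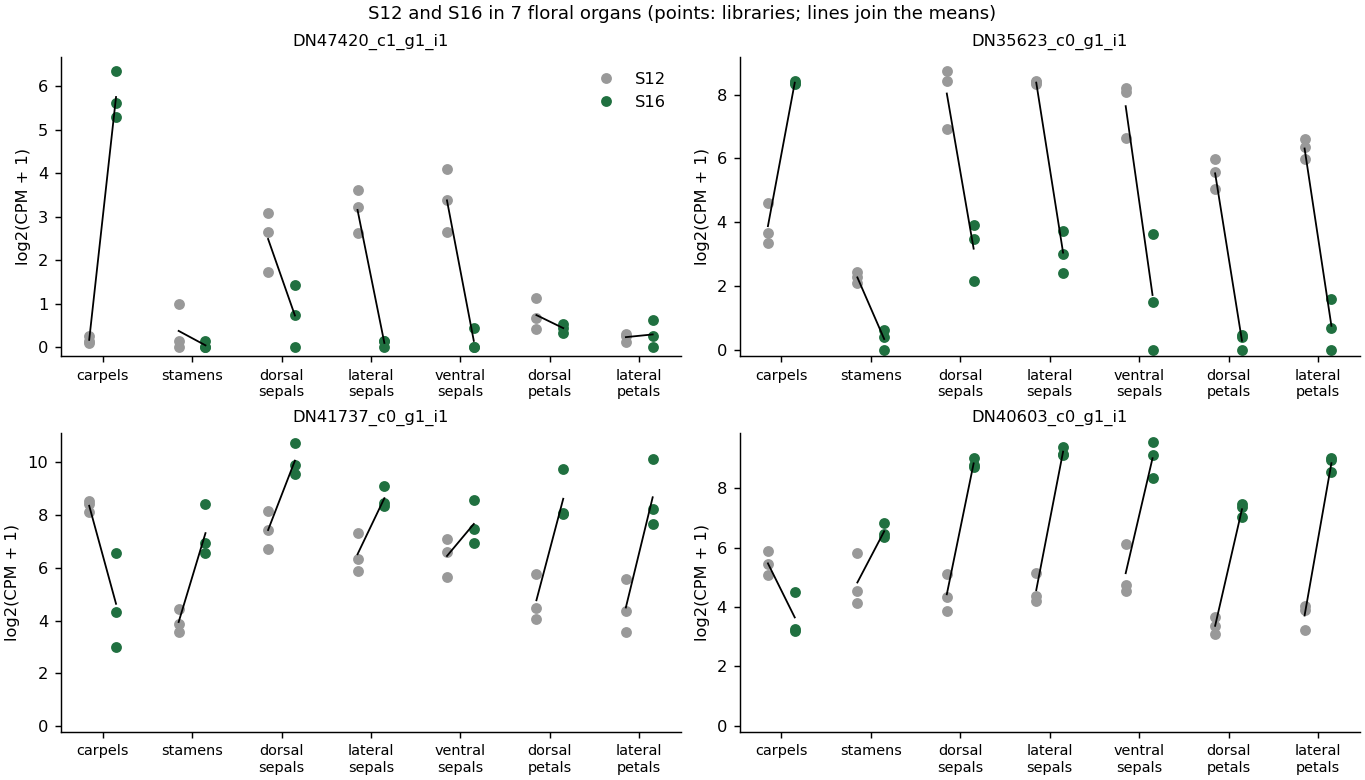
Level at S12 (grey) and S16 (green) in 7 floral organs of 4 features whose carpel change differs from that of stamens, sepals and petals, as log2(CPM + 1); points are libraries, 3 a group, and lines join the means. DN47420 and DN35623 rise in carpels, the latter from 9.27 to 23.3 CPM up to 325 to 341 CPM while it falls elsewhere, and DN41737 and DN40603 are lower in S16 carpels while their means are higher in S16 in each other organ.

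Of the fallers of the longer carpel list, 48.3% to 59% were also called lower in each other organ kind, and the risers were called in both directions there. In the fit of S12 and S16 floral libraries without those under 19000 features, which shares its carpel libraries with the choice of the list but not those of the other organs, 602 of the 604 fallers were tested. In it 19.3% of 22136 features were called higher and 20.6% lower in stamens, 26.6% and 28.7% in sepals, and 29.3% and 27.9% in petals. Of the 602, 48.3% were called lower in stamens, 55.2% in sepals and 59% in petals, against 21.3%, 30.5% and 29.6% of the 20437 features tested in both fits, and 13.3% to 17.3% were called higher. Of the 628 risers 32.2% were called higher and 27.9% lower in stamens, 33.9% and 42.4% in sepals, and 45.7% and 31.1% in petals. Over the 20437 features those shares were 19.4% and 21.3%, 26.7% and 30.5%, and 29.2% and 29.6%. In carpels themselves this fit called 39.2% of the 602 fallers lower and 72.8% of the 628 risers higher. Over the 20437 features it called 1.94% lower and 3.80% higher in carpels. The change of a riser was called larger in carpels than in stamens for 317 of 628, than in sepals for 412 and than in petals for 329, and smaller for 40, 39 and 71. For the 602 fallers the change was called lower in carpels than in stamens for 151, than in sepals for 180 and than in petals for 167, and higher for 103, 149 and 187. Among all 22136 features the carpel change was called higher than that of stamens, sepals and petals for 3004, 4205 and 3961. It was called lower for 2501, 3251 and 3689. Both directions together made up 24.9%, 33.7% and 34.6%. The carpel libraries that chose the lists enter these tests.

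Sets of organ-enriched features, taken from libraries other than the S12 and S16 carpels, describe which kinds of RNA gained or lost. An early set rests on S9 and S10 organs with leaves and bracts, and a late set on S12 and S16 sepals, petals and stamens with leaves and bracts. Members are at least 4-fold above every other kind, each at an edgeR adjusted p under 0.05. In these bulk samples fewer cells of a type and less RNA per cell cannot be told apart. A set's count is read against 11 higher and 12 lower of 19829 in the 11-library fit, 3.01% higher and 2.89% lower without libraries under 19000 features, and a median log2 change over all features of -0.03.

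Features enriched in young carpels stood lower at S16. The mean log2 CPM of the 34 members was 4.58, 4.46 and 4.59 in S12 replicates 1, 2 and 3 and 3.85, 3.97 and 3.87 in S16 replicates 1, 2 and 3, so the groups did not overlap and S16 replicate 3 lay with the other S16 libraries. The median log2 change was -0.62, and 1 member was called higher and 1 lower. Without the libraries under 19000 features 3 rose and 15 fell (44.1% lower, against 2.89% of all features), with a median of -0.81. In 16 of the 34 all S16 libraries lay below all S12 libraries and in 7 above, against 13.1% and 10% of all features. The summed level, given above, did not show this fall. S16 replicates 1 and 2 held 5501 and 4712 CPM, against 4593 to 5347 CPM in the S12 libraries. Only S16 replicate 3, at 9288 CPM, stood far above them.

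Leaf-enriched features stood higher. The 25 early leaf members had a mean log2 CPM of 5.79, 5.62 and 5.28 at S12 and of 6.53, 6.48 and 5.64 at S16, where replicate 3 lay within the S12 range. Their median log2 change was 0.64, with 0 called in either direction by edgeR on the 11 libraries, and 14 of 25 rose and 0 fell without the libraries under 19000 features (56% higher, against 3.01%). Their summed level was 2864, 2668 and 2057 CPM at S12 and 4999, 4981 and 2279 CPM at S16, where leaves themselves held 8220 to 14700 CPM. Of the 49 late leaf members, 19 rose and 3 fell without those libraries, with a median of 0.59. Their mean log2 CPM was 5.64, 5.525 and 5.40 at S12 and 6.15, 6.12 and 5.52 at S16. They summed to 6652, 5955 and 5964 CPM at S12 and to 7343, 7329 and 4815 CPM at S16. In S9 and S10 carpels the sums were 7323 to 9019 CPM and the means 3.79 to 5.31. Leaf RNA is rich in transcripts for photosynthesis in plants generally, but the files do not say what these members encode.

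Sepal-enriched features had medians of 0.47 (41 early members tested) and 0.61 (94 late members), with 0 called among either on the 11 libraries. Without the libraries under 19000 features, S16 replicate 3 among them, 5 of 42 and 14 of 102 rose while 0 and 1 fell. The late mean log2 CPM was 1.418, 1.459 and 1.869 at S12 and 2.535, 2.469 and 1.196 at S16. Replicate 3 thus lay below all S12 libraries. The early mean was 2.423, 2.48 and 2.94 at S12 and 3.306, 3.308 and 2.425 at S16, with replicate 3 within the S12 range. The summed levels of S16 replicate 3, 1293 CPM (early) and 1008 CPM (late), were above those at S12, at most 917.1 and 974.5 CPM. Bract-enriched features had medians of 0.82 (30 early) and -0.04 (33 late), the latter with 1 called lower. Petal-enriched features were few: 5 of 8 early members were tested, with a median of -4.57 and a summed level of 6.67, 9.12 and 10.4 CPM at S12 and 2.00, 1.43 and 0 CPM at S16, and 14 of 20 late members had a median of 0.17.

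Stamen-enriched features, the largest sets, gave 3 of the 11 risers and no fallers. Of the 486 early members tested 3 were called higher (0.617%, against 0.0555% of all features) and 0 lower, and the set's median was 0.03. Of 437 late members 2 were called higher and 0 lower, with a median of 0.14. Without the libraries under 19000 features 40 of 557 early members rose and 19 fell (7.18% and 3.41%, against 3.01% and 2.89%). The summed level of all 851 early members was 5901, 5860 and 6339 CPM at S12 and 8709, 7708 and 13680 CPM at S16. S16 replicate 3 thus held the highest sum, while 562 of the 851 had no count in it, against 292 to 365 in the other 5 carpel libraries. All 718 late members summed to 6466, 5811 and 6542 CPM at S12 and to 7310, 6692 and 10090 CPM at S16, with 449 of them without a count in S16 replicate 3 and 123 to 236 in the other 5. Stamens of S9 and S10 held 183800 to 268800 CPM of the early set, S16 stamens 25380 to 70580 CPM, and S16 sepals and petals 10030 to 20770 CPM, so S16 carpel replicates 1 and 2 were below every S16 sepal and petal library and replicate 3 lay within their range. DN46815 was higher in every S16 carpel library than in every S16 stamen library, while S12 stamens held 373, 124 and 25.2 CPM. For DN45113 the S16 carpel and S16 stamen libraries overlapped. The part of stamen RNA in the rise of these 2 features was not tested.

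**Figure D5:**
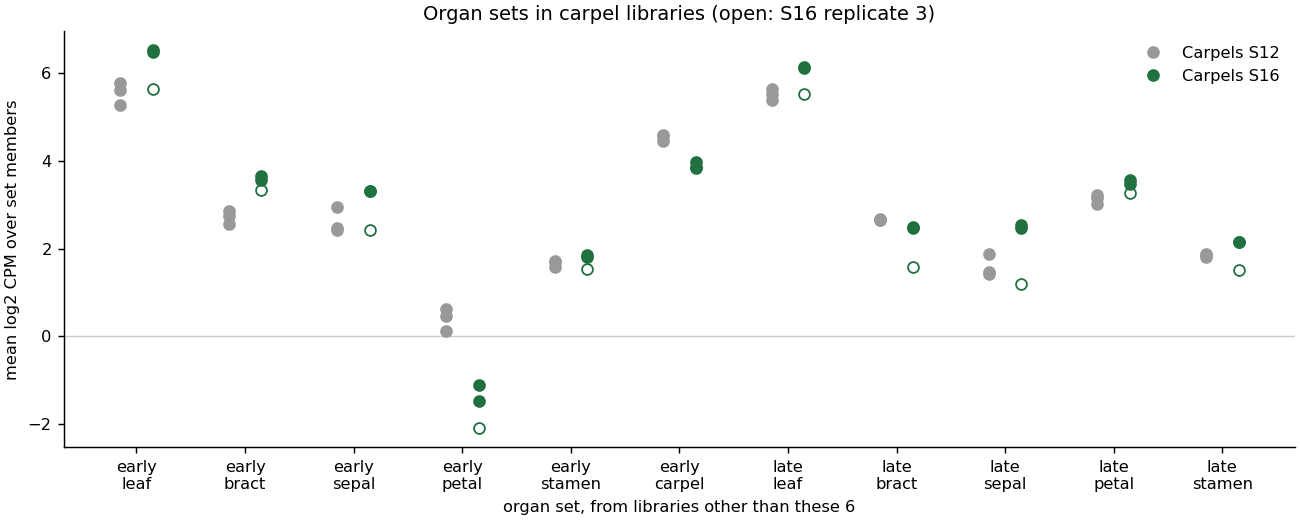
Mean log2 CPM over the members of 11 organ-enriched sets in S12 (grey) and S16 (green) carpel libraries, with S16 replicate 3 open; the sets were defined in other libraries. The early carpel set lies between 4.46 and 4.59 at S12 and between 3.85 and 3.97 at S16, and the early leaf set rises to 6.53 and 6.48 in S16 replicates 1 and 2 and reaches 5.64 in replicate 3.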

How the data were processed

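The authors deposited estimated counts for each feature without normalization. TopHat2 and RSEM are named per the submitters' processing notes; their roles and versions, the reference and the strand setting were not given in the sources used here. Between 93.2% and 99.2% of the values in a wild-type library are exactly whole, zeros included, and between 90.6% and 97.7% of the values above 0. Near-identical features share reads, which RSEM splits by estimation. Values of single features are therefore uncertain in assembly genes with several of them (29.3% of features), as are those of overlapping genes on opposite strands.

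After rounding, the counts were tested in edgeR 4.0.16 (R 4.3.3): TMM scaling, filterByExpr, robust quasi-likelihood fit with one mean per group, call at a Benjamini-Hochberg adjusted p under 0.05, SE as the log2 change divided by the square root of F. The main comparison used the 11 carpel libraries; differences between organs used interaction contrasts over 42 libraries, sepal and petal types averaged. CPM uses the TMM factors of its fit; log2 CPM has a prior count of 2; summed levels use library totals. Alternatives were DESeq2 1.42.0, limma 3.58.1 voom with quality weights, other filters, scalings and library choices, and leaving out each replicate. The scripts were tested on simulated counts. No pair of replicates agreed within sampling noise (lowest chi-square per feature 7.33).

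Named features were called with and without S16 replicate 3, did not overlap, and reached a mean of 10 CPM; the 2 largest changes in each direction were taken, and for differences between organs the 2 with the largest smallest difference. The comparison, lists and rules were chosen with earlier results of these data known. The files carry no gene names or sequences. The 4 silencing libraries were not used.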

Additional observations from a re-analysis of the deposited data

Results flagged for a closer look

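The change from S12 to S16 differed between organs by a direct test in many features. Between carpels and stamens it differed in 2010 features, between carpels and sepals in 2877 and between carpels and petals in 3203 of 21892 (edgeR adjusted p under 0.05 for the interaction). In 49 features that rose and 18 that fell in carpels the change differed from all 3 other organ kinds.

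Of the named features, the smallest of the 3 differences was 8.80 on the log2 scale for DN47420_c1_g1_i1|m.99349, against petals, and 7.996 for DN35623_c0_g1_i1|m.16209, against stamens. It was -5.00 for DN41737_c0_g1_i1|m.32692, against sepals, and -3.39 for DN40603_c0_g1_i1|m.28365, against stamens.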

How the results depend on the processing

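The counts called in S16 against S12 carpels moved with the test and with the libraries in the fit, most with voom. Against 11 higher and 12 lower, the counts were 628 and 604 without libraries under 19000 features, 49 and 6 with only the 6 libraries, 106 and 24 with all 85, and 20 and 24 with no filter on low counts. DESeq2 gave 262 and 210, and voom with sample quality weights 2997 and 2287. Chosen after seeing the data, fits less S10 replicate 1 gave 112 and 68, less S10 replicate 1 and S16 replicate 3 501 and 520, and with only S12 and S16 libraries less S16 replicate 3 666 and 432. Leaving out each replicate in turn gave 0 to 23 higher and 0 to 35 lower, with 878 to 2026 features at an unadjusted p under 0.05. Other filters, upper-quartile scaling, thinning and sums per assembly gene stayed within 1.5 times. The cause of each shift was not tested.

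For the differences between organs, DESeq2 gave 2158 higher and 1306 lower against stamens, 3003 higher against sepals and 2838 higher against petals. Voom gave 4747 and 3831, 5883 and 4618, and 5835 and 5165, and fits without libraries under 19000 features 3004 and 2501, 4205 and 3251, and 3961 and 3689. The 49 and 18 features differing from all 3 organ kinds became 106 and 54 with DESeq2, 841 and 526 with voom, 242 and 129 without those libraries, and 18 to 49 and 8 to 14 with a replicate left out.

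Set medians moved beyond the replicate spread with an 8-fold rule, to 1.095 (early bract), 1.097 (early sepal), -1.83 (late bract), 1.53 (late sepal) and -4.57 (late petal), and with only the 6 libraries, to 0.20 (early stamen) and 0.42 (late petal). Leaving out a replicate gave -4.85 to -2.94 for early petal, -0.80 to -0.55 for early carpel and 0.13 to 0.38 for late petal. The early stamen median, 0.03, was -0.02 with the replicate block and -0.01 without libraries under 19000 features.

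Deviations from group means of same-numbered S12 and S16 libraries correlated at 0.167, 0.0816 and 0.243. Those of differently numbered libraries correlated at -0.258 to 0.247, the highest between S12 replicate 1 and S16 replicate 2. These values do not settle whether replicate numbers pair the libraries. With the replicate block 3 features were higher and 6 lower, 76 and 32 differed from all 3 organ kinds, and the early carpel median was -0.73.

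Depth limits features near 0, where 3 counts stand for up to 0.42 CPM.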
